A study of Mus musculus with 10 samples.

Results

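The genes of the mouse major histocompatibility complex (MHC) and their closest partners were examined in the hearts of iSOD2 mice and their Control littermates. Members were the rows of the deposited count table whose symbol starts with H2-, together with B2m, Cd74, Tap1, Tap2 and Tapbp, and they numbered 49 of 24537 rows. Of these 49, 47 lie on chromosome 17 between positions 33919478 and 37483529 of the mm10 genome, B2m lies on chromosome 2 and Cd74 on chromosome 18. RNA was sequenced from heart tissue of 10 mice at 6 weeks of age, 5 of each genotype. Control mice were Rosa26-rtTA2+/-;TRE-SOD2-shRNA-/- and iSOD2 mice Rosa26-rtTA2+/-;TRE-SOD2-shRNA+/-, so that both carried the doxycycline-responsive transactivator and only iSOD2 mice carried the hairpin against Sod2, which sits at the Col1a1 locus. Dams ate doxycycline chow during pregnancy, so both genotypes were exposed in utero, and Rosa26 drives the transactivator widely rather than in the heart alone. The mice came from 2 litters, called A and B here. Litter A gave 2 mice of each genotype and litter B gave 3. Sex was not balanced in these cells: both litter A Control mice were male, as were iSOD2 7, Control 3 and iSOD2 9, and the other 5 mice were female.

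Class I molecules pair a heavy chain with B2m, the shared light chain, and present peptides made inside the cell to cytotoxic T cells. Tap1 and Tap2 form the transporter that carries those peptides into the endoplasmic reticulum, and tapasin, encoded by Tapbp, holds the transporter and the heavy chain together. The classical heavy chains H2-K1 and H2-D1 are made by most cells, whereas the non-classical H2-Q, H2-T and H2-M chains have narrower expression and more specialised ligands. Class II molecules pair an alpha and a beta chain, travel with the invariant chain Cd74, exchange peptides with the help of H2-DM under restraint by H2-O, and are made mainly by macrophages, dendritic cells and B cells. In bulk tissue a lower level can reflect fewer cells of a type or less RNA per cell, and these cannot be told apart.

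The libraries held 16448090.5 to 24263085.5 counts over genes, of which the 49 rows took 0.0570% to 0.0842%. Sod2, the gene targeted in utero, had 10573 ± 588 normalized counts in Control hearts and 10781 ± 449 in iSOD2 hearts at this age (SD, n = 5 each, log2 difference 0.03, SE 0.05, adjusted p 0.806 by DESeq2). The summed level of 7 ventricular cardiomyocyte markers was 1290950 to 1655160 normalized counts in every heart, so the markers of the labelled tissue were present, with 1519710 to 1655160 in litter A and 1290950 to 1486100 in litter B. Markers of liver cells were also detected, from a sum of 230.2 normalized counts in Control 1 to 19766 in iSOD2 10, and this spread touches some results given later.

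Of the 49 rows, 36 had at least 10 counts summed over the 10 libraries and were tested. The 9 rows at 0 in every library were H2-Ea-ps, H2-M1, H2-M2, H2-M9, H2-M11, H2-M10.1, H2-M10.3, H2-M10.4 and H2-M10.6, and a count of 0 allows up to 3 counts in a library. H2-Q2, H2-Bl, H2-T3 and H2-M10.5 were detected with at most 8.5 counts in all and were left out. The hearts averaged 50 normalized counts or more for 24 rows, and 12 tested rows fell below that level. Rows are not all separate genes: H2-D1 and H2-L, H2-Q7 and H2-Q9, H2-Q6 and H2-Q8, and H2-T22 and H2-T9 overlap on the same strand and count the same reads, which leaves 45 loci. C57BL/6 mice, the strain of the dams, carry no separate L gene, so the H2-L row is read here as a second count of H2-D1. Reads may also be split between the near-identical H2-Q and H2-T paralogs, and the deposited counts give no way to separate these.

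The promoters of the classical chains are shown so that the chains that rose in iSOD2 hearts, H2-D1 and H2-K1, can be read beside 1 non-classical and 2 class II chains that did not pass the test. Each line gives the 190 bases directly before the RefSeq transcription start in build GRCm38.p6, read on the gene's own strand. The stretches are chr17:35262904-35263093 (+) for H2-D1, chr17:34000334-34000523 (-) for H2-K1, chr17:35379427-35379616 (+) for H2-Q4, chr17:34287824-34288013 (-) for H2-Aa and chr17:34305677-34305866 (+) for H2-Eb1. Capitals mark the letters of the motifs searched on both strands, which were the Y box core ATTGG, the longer Y box CTGATTGG that contains it, the X2 box TGCGTCA, the interferon response letters GAANNGAAA and a palindromic kappa-B site.
H2-D1: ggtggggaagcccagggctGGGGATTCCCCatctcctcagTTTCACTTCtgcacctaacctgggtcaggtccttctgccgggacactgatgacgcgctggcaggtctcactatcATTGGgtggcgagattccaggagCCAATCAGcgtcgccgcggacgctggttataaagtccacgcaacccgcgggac
H2-K1: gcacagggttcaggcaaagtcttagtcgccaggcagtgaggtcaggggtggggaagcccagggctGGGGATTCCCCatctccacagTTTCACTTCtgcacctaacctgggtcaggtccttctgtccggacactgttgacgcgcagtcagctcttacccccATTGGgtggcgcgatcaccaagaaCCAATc
H2-Q4: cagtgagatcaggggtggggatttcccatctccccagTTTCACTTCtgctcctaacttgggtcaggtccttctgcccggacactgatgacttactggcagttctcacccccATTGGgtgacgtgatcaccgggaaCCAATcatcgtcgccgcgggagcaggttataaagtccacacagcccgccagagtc
H2-Aa: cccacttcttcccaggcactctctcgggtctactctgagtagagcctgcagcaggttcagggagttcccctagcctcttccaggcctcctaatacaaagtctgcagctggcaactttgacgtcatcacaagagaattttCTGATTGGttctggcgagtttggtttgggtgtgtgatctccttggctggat
H2-Eb1: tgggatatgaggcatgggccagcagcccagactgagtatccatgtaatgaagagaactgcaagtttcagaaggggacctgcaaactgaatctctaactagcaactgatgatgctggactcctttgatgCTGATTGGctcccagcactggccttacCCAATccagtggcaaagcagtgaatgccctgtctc

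The H2-K1 and H2-D1 stretches aligned over 144 columns, of which 128 (88.9%) were identical. In both, the kappa-B letters, the interferon response letters and the Y box core followed each other in the same order towards the start. The kappa-B letters began 171 bases before the H2-D1 start and 125 bases before the H2-K1 start. Over windows of 250 bases before to 50 after the start, these letters were present in 10 of 32851 RefSeq promoters (0.0304%), and 3 members held them, H2-K1, H2-D1 and H2-Q6. H2-Q6, which also held the interferon response letters and the longer Y box, was not called by genotype (log2 difference 0.43, SE 0.29, no adjusted p by DESeq2). Only the exact kappa-B letters marked in H2-D1 and H2-K1 were searched. The H2-Q4 stretch holds the near match ggggatttccc, left in lower case, so its lack of marked letters does not show that it lacks such a site. The interferon response letters were present in 7.52% of all promoters and in both classical class I promoters, 6 of 21 non-classical class I promoters and none of 3 classical class II promoters. The longer Y box, present in 4.1% of all promoters, was found in both classical class I promoters, in all 3 of the classical class II promoters and in 12 of 21 non-classical class I promoters; the shorter core was present in 37.4% of all promoters. The X2 letters, present in 2.12% of all promoters, were found in none of the 35 members with an entry. H2-Ab1, Cd74 and Tap2 were among the 14 members without one. Only the exact X2 letters were searched, and related letters such as tgacgtca before the Y box of H2-Aa were not counted. The count of X2 letters therefore does not show that an X2 box is absent. These matches describe letters in a window and do not show binding.

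Per exon length, class I was the more abundant class in the heart. Summed over loci, the classical class I heavy chains had 1572 to 2610 normalized counts per kb and the classical class II chains had 754 to 1574. B2m was the most abundant member at a mean of 2493 normalized counts per kb, followed by H2-L at 1276, Cd74 at 1203 and H2-D1 at 1200.1. H2-Ke6, whose symbol starts with H2- but which encodes a hydroxysteroid dehydrogenase and not an MHC molecule, had 638. The non-classical class I heavy chains together had 764 to 1104 normalized counts per kb, led by H2-T23 at a mean of 203. The DM and O chains together had 91.4 to 127.

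The first comparison asked whether MHC gene levels differed between iSOD2 and Control hearts. The classical class I heavy chains rose in iSOD2 hearts by 0.35 to 0.39 on the log2 scale, and no member fell past the threshold. A gene was called at a DESeq2 adjusted p of at most 0.05 with a log2 difference above 0.25 in either direction. By this rule 3 of the 17 members with an adjusted p were called, all higher in iSOD2, beside 2.96% of all genes in either direction and 1.27% in the higher direction. The 3 rows stand for 2 loci, since H2-L and H2-D1 count the same reads. Over the 36 tested members 24 differences were above 0 and 12 below, with a median log2 difference of 0.11 against -0.00 over all genes, and 9 had an unadjusted p under 0.05, beside 13.2% of all genes. These are counts of rows, and the 9 include H2-D1 with H2-L and H2-T22 with H2-T9, pairs that count the same reads. The edgeR quasi-likelihood test called 0 members and 0% of all genes in this comparison, with 9 members at an unadjusted p under 0.05 beside 15.3% of all genes and a lowest member adjusted p of 0.0745.

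H2-K1 had 1541, 1355, 1103, 1363 and 1525 normalized counts in Control 1, 2, 3, 4 and 6. In iSOD2 5, 7, 8, 9 and 10 it had 1822, 1544, 1806, 1911 and 1920.0. Every iSOD2 heart lay above every Control heart, although iSOD2 7 exceeded Control 1 by little. The means were 1377 ± 176 and 1800.4 ± 152 (SD, n = 5 each), a log2 difference of 0.39 (SE 0.09, adjusted p 0.00265 by DESeq2 and 0.0786 by edgeR).

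H2-D1 had 2039.8, 1737, 1549, 1835 and 1948 normalized counts in the Control hearts, in the same order of mice. The iSOD2 hearts had 2252, 2037, 2360.2, 2489 and 2468. The genotypes overlapped through 1 pair, Control 1 and iSOD2 7, both from litter A. The log2 difference was 0.35 (SE 0.08, adjusted p 0.00188 by DESeq2 and 0.0745 by edgeR), and the H2-L row over the same reads gave 0.35 (SE 0.08, adjusted p 0.00153 by DESeq2 and 0.0745 by edgeR).

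B2m, the light chain these heavy chains need at the cell surface, had 1906, 1901, 1679, 1907 and 2117 normalized counts in Control hearts and 2060.4, 1917, 2158, 2946 and 2646 in iSOD2 hearts. The top values were those of iSOD2 9 and 10, and the genotypes overlapped. Its means were 1902 ± 155 and 2345 ± 433 (SD, n = 5 each), and the log2 difference of 0.30 (SE 0.11) did not pass the test (adjusted p 0.0756 by DESeq2 and 0.203 by edgeR). With litter as a covariate it passed (0.29, SE 0.10, adjusted p 0.0442), as it did without iSOD2 7. With the exon-length trend removed the difference was 0.18 (adjusted p 0.593), and within litter A alone it was 0.10 (SE 0.10, adjusted p 0.695).

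**Figure D1:**
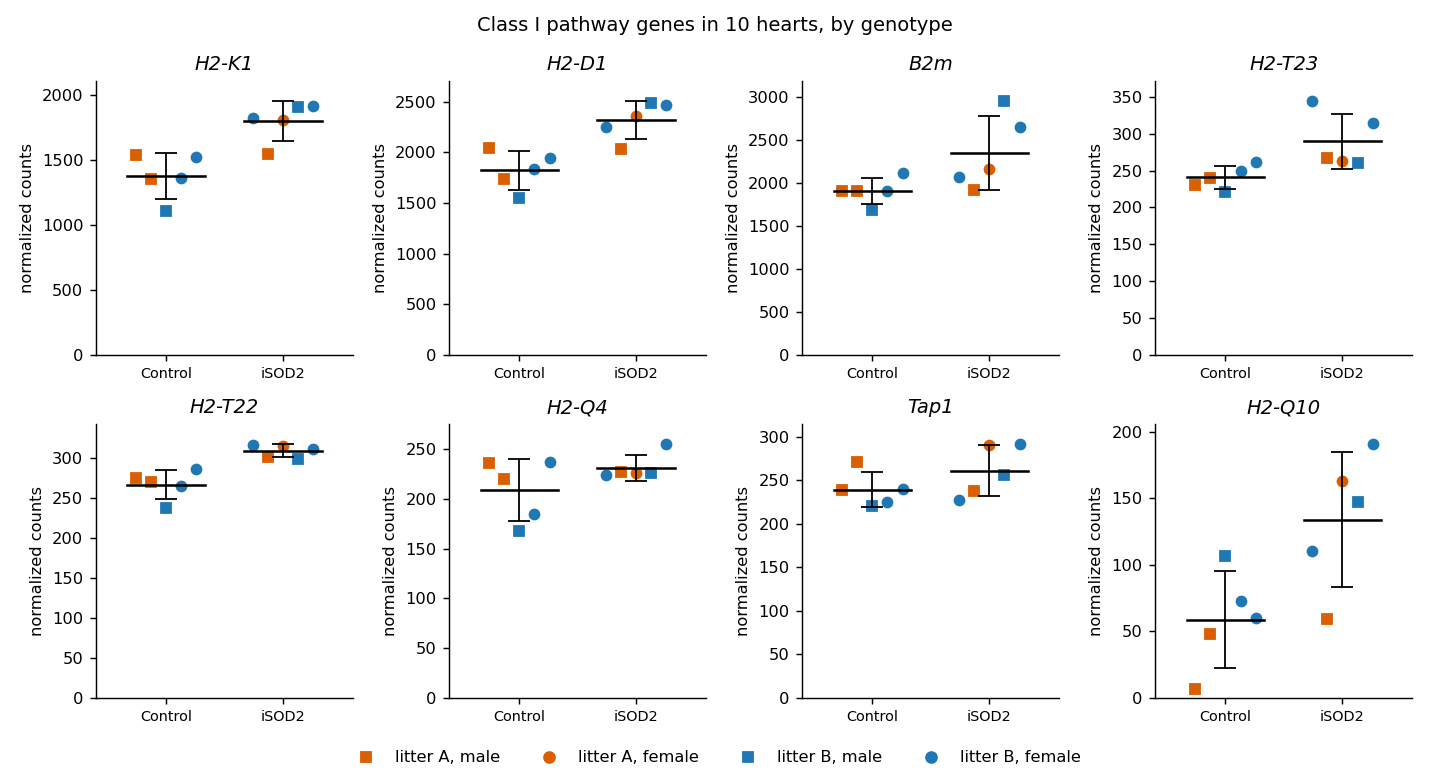
Normalized counts (vertical axes, from 0) of 8 class I pathway genes in Control and iSOD2 hearts, with 1 symbol per mouse, colour for litter, shape for sex, and bars for mean ± SD (n = 5 each). H2-K1 and H2-T22 do not overlap between genotypes, H2-D1 overlaps through 1 pair of litter A mice, and H2-Q10 is lowest in Control 1 at 6.33.

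The loading genes moved little. Tapbp had 1337 to 1573 normalized counts in Control and 1484 to 1592 in iSOD2 hearts, with a log2 difference of 0.04 (SE 0.06, adjusted p 0.725 by DESeq2). Tap2 ranged over 408 to 509 and 427 to 539.7 (0.08, SE 0.09, adjusted p 0.642), and Tap1 over 221 to 272 and 228 to 291 (0.13, SE 0.10, adjusted p 0.522). All 3 genes overlapped between genotypes.

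Among the non-classical class I heavy chains, 18 of 30 rows were tested and 0 were called by DESeq2, with 13 differences above 0, 5 below and 5 at an unadjusted p under 0.05. The edgeR test likewise called none of them. Over all genes DESeq2 called 2.96%, and 13.2% had an unadjusted p under 0.05. The 5 rows include both H2-T22 and H2-T9, which count the same reads, so they are not 5 separate loci. H2-T22, whose product is a ligand of gamma delta T cells, had 275, 269.8, 238, 265 and 286 normalized counts in Control hearts and 317, 301, 315, 299 and 311 in iSOD2 hearts. The genotypes did not overlap, but the log2 difference of 0.21 (SE 0.08) had an adjusted p of 0.0929 by DESeq2. The H2-T9 row over the same reads gave 0.21 with an adjusted p of 0.101.

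H2-T23, which encodes Qa-1, a ligand of inhibitory receptors on natural killer cells, had 231, 239.9, 221, 249.9 and 262 normalized counts in Control hearts and 344, 267, 263, 259.7 and 314 in iSOD2 hearts. Only Control 6 and iSOD2 9 overlapped, and the log2 difference was 0.27 (SE 0.10, adjusted p 0.102 by DESeq2). H2-Q4 had 167 to 237 in Control and 224 to 254 in iSOD2 hearts (adjusted p 0.492), and H2-T24 had 327 ± 41.4 and 344 ± 48.3 (SD, n = 5 each, adjusted p 0.782). H2-T23 and H2-T24 overlap A930015D03Rik, and B2m overlaps Patl2, on the opposite strand, and the counting command states no strand option, so these counts may include reads of the partner.

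H2-Q7 and H2-Q9, which encode the Qa-2 antigens, count the same reads, and H2-Q9 had 36.4 to 102 normalized counts in Control hearts and 66.3 to 107 in iSOD2 hearts. H2-Q8 had 42.9 ± 17.7 and 58.5 ± 17.2 (SD, n = 5 each). Both rows spread widely within a genotype. H2-M3, which presents formylated peptides, stood at 68.9 ± 5.19 and 64.8 ± 5.59. DESeq2 gave these rows no adjusted p because of their low mean.

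Overlap between genotypes was absent in 4 of the 36 tested members, H2-K1, H2-T22, H2-T9 and H2-Q1, beside 3.77% of all genes. H2-T22 and H2-T9 count the same reads and are not separate loci. H2-Q1, below the level set for naming and singled out after its values were seen, had 15.8 to 25.8 normalized counts in Control and 31.1 or more in iSOD2 hearts (log2 difference 0.52, SE 0.24, unadjusted p 0.0311 by DESeq2).

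H2-Q10, a secreted class I chain made chiefly by the liver, had a ratio of highest to lowest heart of 30.1. This ratio was the largest among the 24 rows that averaged 50 normalized counts or more. H2-Q10 is given here by mouse. It had 6.33, 47.7, 107, 73.1 and 60.2 normalized counts in Control hearts and 110.2, 59.1, 163, 147 and 190.4 in iSOD2 hearts. The log2 difference was 1.19 (SE 0.60, unadjusted p 0.0471 by DESeq2, with no adjusted p). Its lowest and highest hearts, Control 1 and iSOD2 10, were also the lowest and highest for albumin (Alb), at 47.9 and 14601 normalized counts. All 8 liver cell markers were detected, their sum was 230.2 to 9787 in Control and 4959 to 19766 in iSOD2 hearts, and with these markers as a covariate the H2-Q10 difference was 0.07. Without Control 1 and iSOD2 10 it was 0.73 (SE 0.30, unadjusted p 0.0134). With the liver markers as a covariate H2-K1 differed by 0.46 (SE 0.11, adjusted p 0.00730) and H2-D1 by 0.41 (SE 0.10, adjusted p 0.00574). Without Control 1 and iSOD2 10, the difference was 0.40 for H2-K1 (adjusted p 0.00934) and 0.37 for H2-D1 (adjusted p 0.00685). The covariate was chosen after seeing the data, and the mean marker sum itself differed by genotype, at 4855 in Control and 11616 in iSOD2 hearts. The part of liver RNA in these differences was not tested.

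Markers of the cells that carry much MHC were compared beside the class I rise. The summed level of 7 endothelial markers was 20219 to 25389 normalized counts in Control and 21670 to 24707 in iSOD2 hearts, that of 10 macrophage markers 6637 to 8459 and 5843 to 7870.4, and that of 9 dendritic cell markers 659.7 to 725 and 634 to 706. B cell markers (7 of 8 in the table) summed to 89.4 to 153 and 80.2 to 137, and 9 T and NK cell markers to 48.9 to 70.3 and 53.2 to 78.2. No gene of these lists was at 0 in all hearts, and all 5 sums overlapped between genotypes. Zbtb46 and Clec9a made up most of the dendritic cell sum in every heart. By DESeq2 0 of these markers passed the genotype test, beside 2.96% of all genes. Of the 10 macrophage markers, 8 had a genotype difference below 0 and 3 an unadjusted p under 0.05, beside 13.2% of all genes. Of the 7 endothelial markers, 5 had a genotype difference above 0 and 2 below, with a median log2 difference of 0.01. Emcn, an endothelial surface protein singled out after its values were seen, had 561 to 652 normalized counts in Control and 676 to 791 in iSOD2 hearts, with no overlap (log2 difference 0.245, SE 0.07, adjusted p 0.0181 by DESeq2, inside the threshold on size). With B cell markers as a covariate the H2-K1 difference was 0.39 (adjusted p 0.00133), and relations across mice are given later. The part of the other cell types in the class I rise was not tested.

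**Figure D2:**
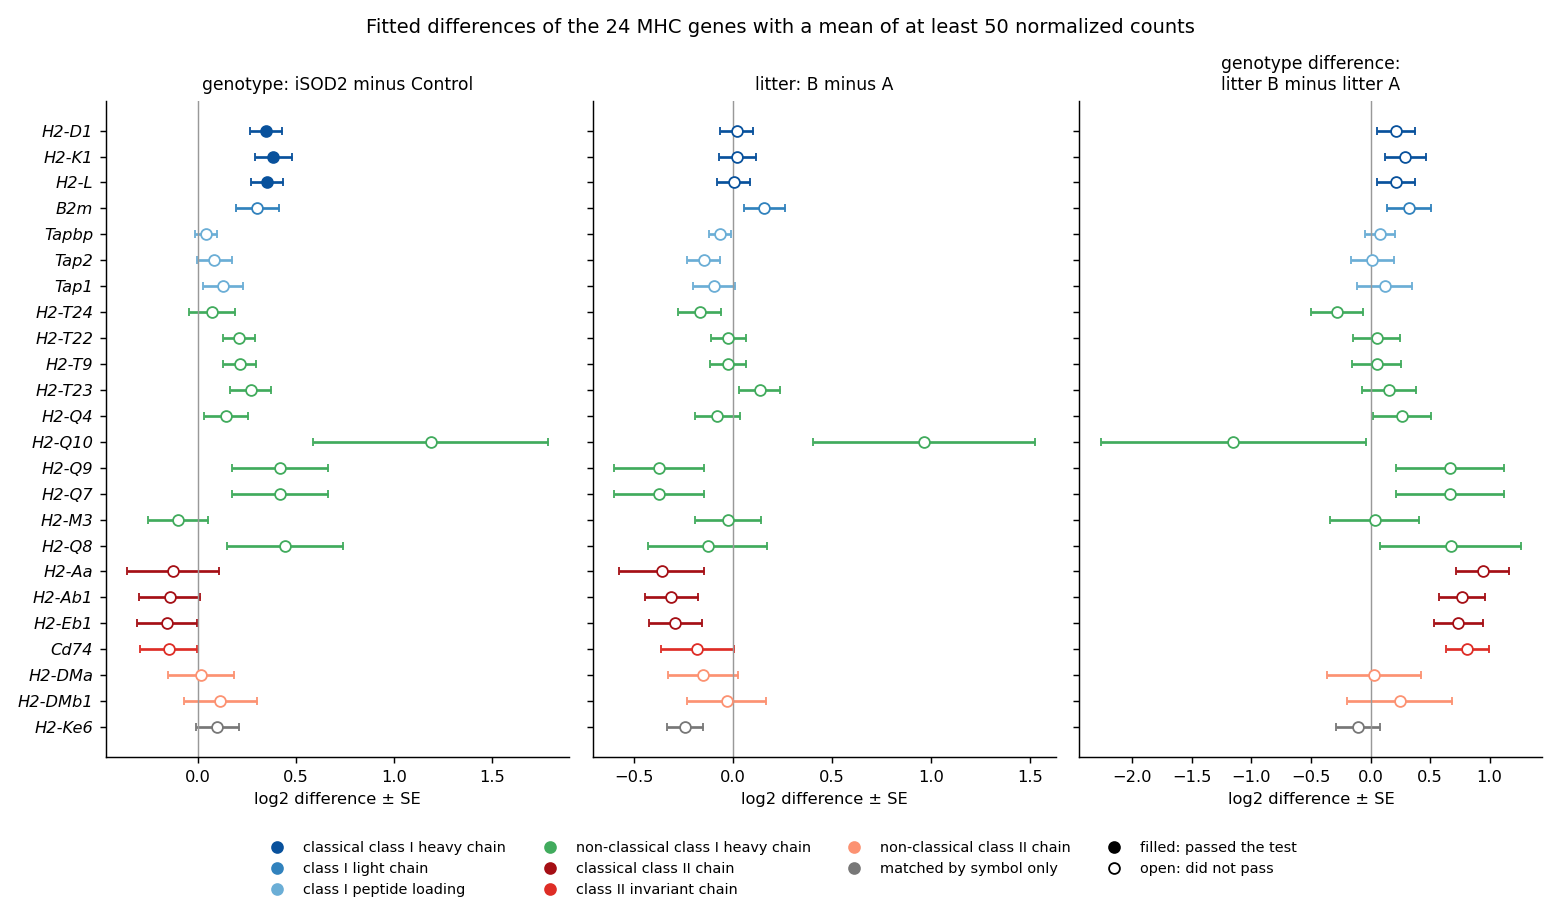
Log2 difference ± SE (horizontal axes) from DESeq2 for the 24 MHC rows that averaged 50 normalized counts or more, by role, for genotype (left), litter (middle) and the difference of the genotype effect between litters (right). Filled points passed the test, which were H2-D1, H2-K1 and H2-L for genotype only, and the 4 class II points at right, from 0.74 to 0.94, are open.

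H2-Aa, H2-Ab1, H2-Eb1 and Cd74 did not pass the genotype test, and all 4 had estimates below 0. H2-Aa, the alpha chain of I-A, had 537 ± 182 normalized counts in Control and 491 ± 67.3 in iSOD2 hearts (SD, n = 5 each, log2 difference -0.13, SE 0.23, adjusted p 0.809 by DESeq2). H2-Ab1, its beta chain, gave -0.14 (SE 0.16, adjusted p 0.650), H2-Eb1, the beta chain of I-E, -0.16 (SE 0.15, adjusted p 0.6001) and Cd74 -0.15 (SE 0.14, adjusted p 0.608). H2-DMa (0.02, SE 0.17) and H2-DMb1 (0.11, SE 0.19) had no adjusted p. The SD of H2-Aa, H2-Ab1, H2-Eb1 and Cd74 was larger in Control than in iSOD2 hearts, and their highest values were those of both litter A Control hearts.

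**Figure D3:**
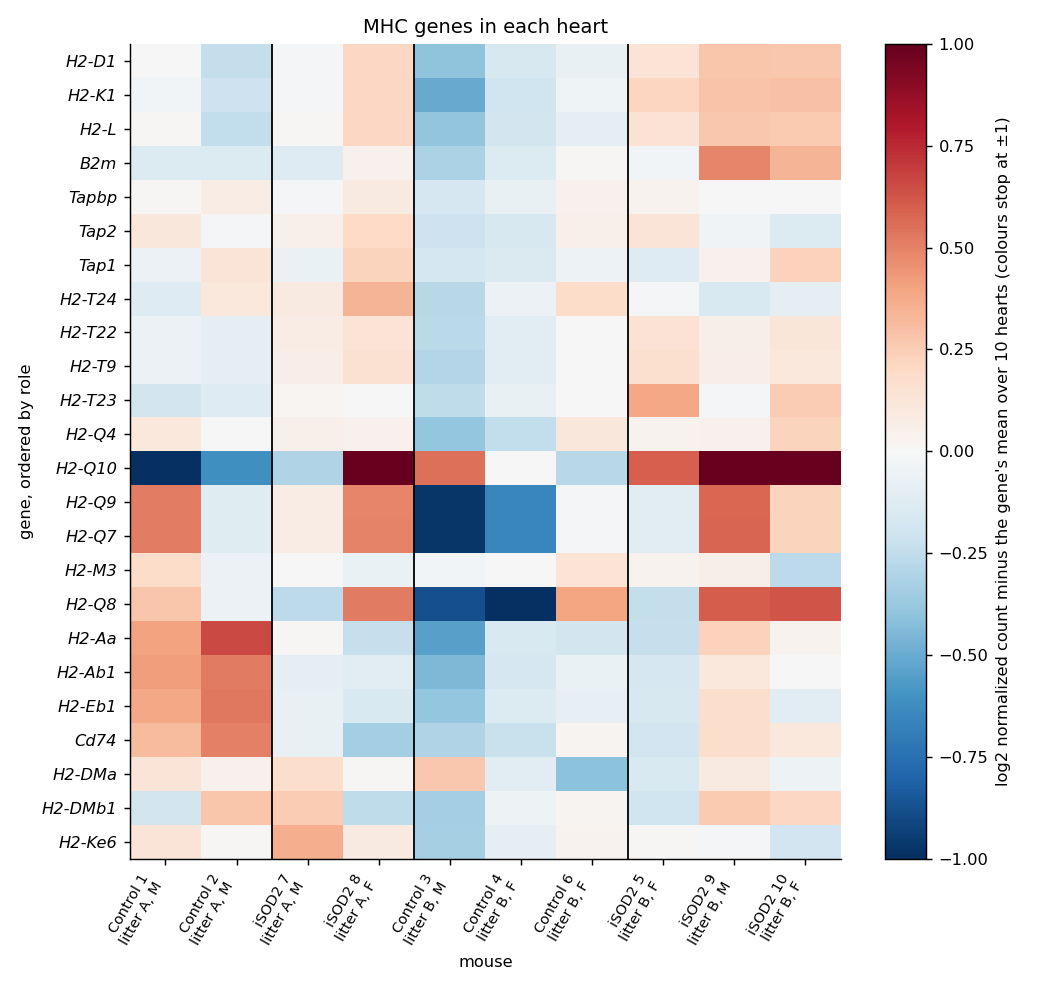
Log2 normalized count of each of 24 MHC rows minus its mean over the 10 hearts (colour, cut at ±1), with mice grouped by litter and genotype along the horizontal axis and genes by role along the vertical axis. The classical class I rows are white to blue in Control hearts and red in all iSOD2 hearts but iSOD2 7, and the class II block from H2-Aa to Cd74 is reddest in Control 1 and Control 2.

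The second comparison asked whether the litters differed. With genotype in the model, 0 of 31 members with an adjusted p were called by DESeq2 beside 3.5% of all genes, and 4 of 36 had an unadjusted p under 0.05, beside 13% of all genes. edgeR called 0 members beside 2.06% of all genes, and gave 8 of 36 an unadjusted p under 0.05 beside 16.1%. Over the tested members 28 differences were lower in litter B and 8 higher, with a median log2 difference of -0.15 against -0.00 over all genes. The lowest adjusted p values were those of H2-Ke6 (-0.24, SE 0.09, adjusted p 0.104), H2-Ab1 (-0.31, SE 0.13, 0.209) and H2-Eb1 (-0.29, SE 0.13, 0.267), whereas H2-K1 (0.02, SE 0.09) and H2-D1 (0.02, SE 0.08) had estimates near 0. H2-Oa and H2-Eb2, 2 of the 36 tested members, had no overlap between litters, beside 4.03% of all genes, and lay under 8 normalized counts in every heart.

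The third comparison asked whether the genotype difference itself differed between litters. H2-Aa, H2-Ab1, H2-Eb1 and Cd74 were the members with the lowest p, and each was lower in iSOD2 than in Control hearts in litter A and had a higher mean in iSOD2 hearts in litter B. None passed the adjusted test.

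Cd74 had 2069 and 2352 normalized counts in the litter A Control hearts and 1575 and 1315 in the litter A iSOD2 hearts. In litter B it had 1345, 1422 and 1689.7 in Control and 1453, 1877 and 1790.5 in iSOD2 hearts. The litter A Control hearts stood above all 8 others, and the other 3 cells overlapped. The log2 genotype difference was 0.81 higher in litter B than in litter A (SE 0.18, p 6.63e-06, adjusted p 0.0588 by DESeq2).

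H2-Aa followed the same order, with 662 and 789 normalized counts in litter A Control hearts, 504 and 428 in litter A iSOD2 hearts, 344, 449 and 441 in litter B Control hearts and 426, 587 and 512 in litter B iSOD2 hearts. Its difference between litters was 0.94 (SE 0.22, p 2.00e-05, adjusted p 0.118). H2-Ab1 had 562 and 603 in litter A Control hearts against 307 to 453 in all others (0.77, SE 0.19, p 6.88e-05, adjusted p 0.293), and H2-Eb1 had 483 and 531 against 282 to 418 (0.74, SE 0.20, p 0.000314, adjusted p 0.521). In all 4 genes the 2 highest hearts were Control 1 and Control 2.

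By this test 0 members were called with DESeq2, beside 0.00564% of all genes, and by edgeR 0 as well, with a lowest member adjusted p of 0.998. At an unadjusted p under 0.05 there were 4 of 36 members, these 4, with each tool, beside 1.79% of all genes by DESeq2 and 3.81% by edgeR. The 4 are products of one pathway measured in the same hearts and are not independent. The result rests on 2 Control hearts that share litter and sex, so a sex difference among litter A Controls cannot be told apart from a difference shared by these mice. The third male Control, Control 3 of litter B, had the lowest value of all 10 hearts for H2-Aa, H2-Ab1 and H2-Eb1 and the second lowest for Cd74. With sex as a covariate the difference between litters was 0.77 for Cd74 (adjusted p 0.290).

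Within litter A alone Cd74 was lower in iSOD2 hearts by DESeq2 (log2 difference -0.61, SE 0.12, adjusted p 0.000127, 2 mice of each genotype) and was the 1 member called there, beside 2.77% of the genes with an adjusted p. H2-Aa (-0.64, unadjusted p 6.26e-05), H2-Ab1 (-0.57, unadjusted p 0.000218) and H2-Eb1 (-0.57, unadjusted p 0.000563) had no adjusted p in litter A because of their low mean and so could not be called. Within litter B alone it was 0.20 (SE 0.11, adjusted p 0.699), and H2-K1 (0.50, SE 0.11, adjusted p 0.00551), H2-D1 and H2-L were called there, beside 0.497% of all genes. Within litter A, H2-K1 differed by 0.21 (SE 0.12, adjusted p 0.409) and H2-D1 by 0.22 (SE 0.12, adjusted p 0.368). The difference between litters was 0.29 for H2-K1 (SE 0.17, p 0.0883) and 0.22 for H2-D1 (SE 0.16, p 0.171), and neither passed after adjustment by DESeq2. Among Control hearts alone, Cd74, H2-Aa, H2-Ab1 and H2-Eb1 were lower in litter B, by -0.57, -0.81, -0.68 and -0.64 on the log2 scale (adjusted p 0.000221, 2.41e-05, 0.000574 and 0.00145 by DESeq2), and they were the 4 members called there, beside 2.06% of all genes. Among iSOD2 hearts alone the same 4 genes differed by 0.08 to 0.24 and were not called, beside 0.524% of all genes called. For these 4 genes the litter A fit and the Control fit both rest on Control 1 and Control 2, already seen to be highest. Those fits are therefore not separate support for the difference between litters. The fits within 1 litter or 1 genotype were run with DESeq2 only.

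**Figure D4:**
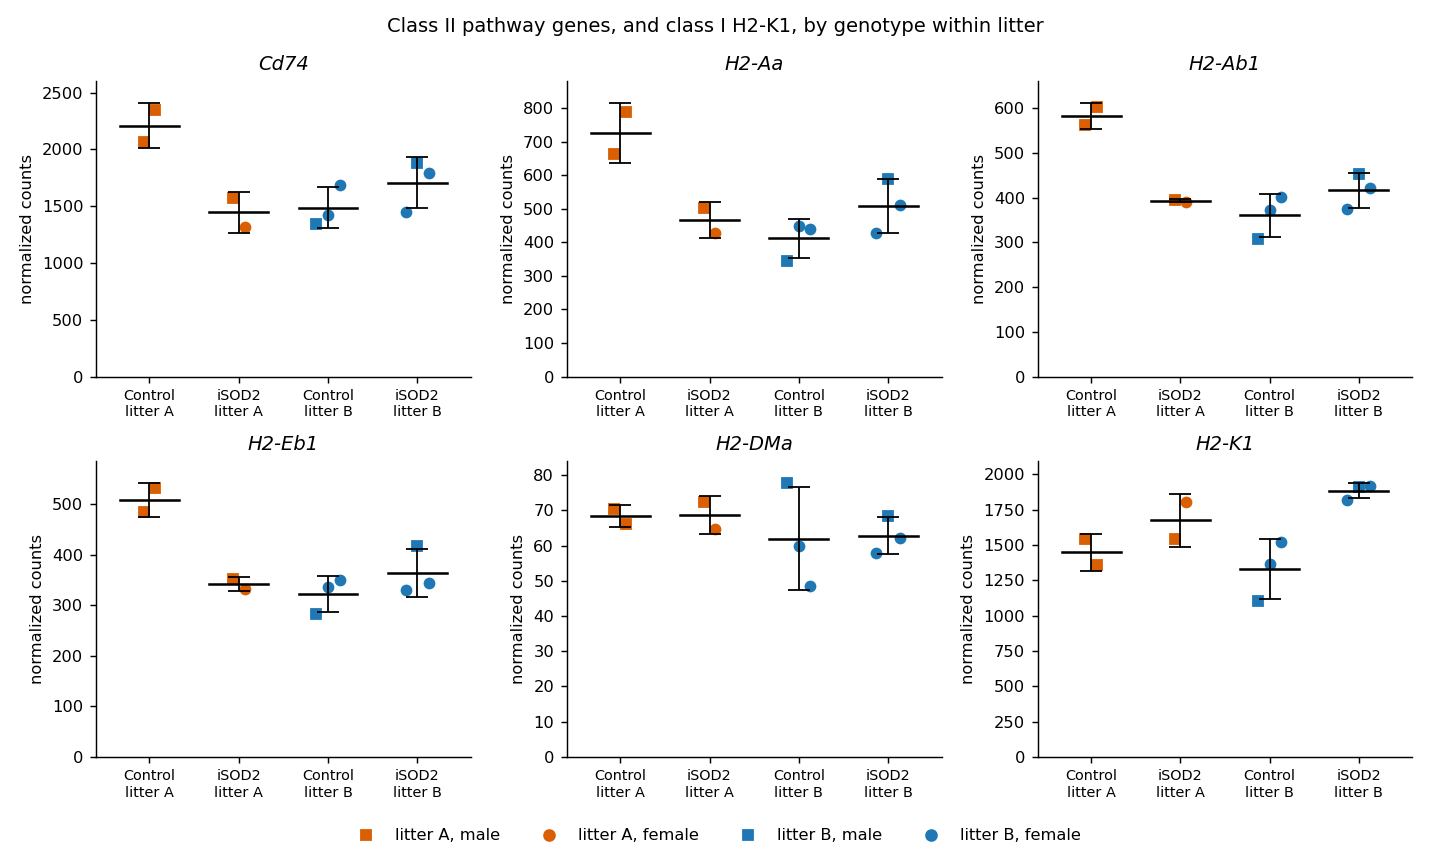
Normalized counts (vertical axes, from 0) of 5 class II pathway genes and H2-K1 in the 4 cells of genotype and litter, with 1 symbol per mouse, shape for sex, and bars for mean ± SD (n = 2 each in litter A, n = 3 each in litter B). Cd74, H2-Aa, H2-Ab1 and H2-Eb1 are highest in both litter A Control hearts, and H2-K1 has a higher mean in iSOD2 than in Control hearts in each litter.

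The markers of class II bearing cells were read beside this pattern. In the litter A Control hearts the macrophage sum was 6956 and 7313 normalized counts, inside the range of 5843 to 8459 over all hearts, and above the 5843 and 5968 of the litter A iSOD2 hearts. The dendritic cell sum was 659.7 and 705, inside 634 to 725. In Control 1 and 2 it was set mostly by Zbtb46 (385 and 360) and Clec9a (158 and 229), so it says little of the other dendritic cell markers. Single markers were singled out after their values were seen: Ccr2, a receptor of monocytes and the macrophages they give rise to, was highest in Control 1 and 2, at 89.1 and 80.0 normalized counts against at most 68.8, and Itgax, a dendritic cell integrin, was highest in Control 1. Adgre1, Flt3, Xcr1 and Cd209a were also highest in Control 1 or Control 2. All other macrophage and dendritic cell markers were highest in other hearts. In Control 1 and 2, Lyve1 had 289 and 363 normalized counts against up to 539 elsewhere. C1qa had 900 and 926 against up to 1134, and Clec9a 158 and 229 against up to 245. The B cell sum was 153 in Control 1, the highest of all, and 99.1 in Control 2. The liver marker sum was lowest in these hearts, at 230.2 and 2812 against 4959 or more in the others. With the liver markers as a covariate the genotype differences of Cd74, H2-Aa, H2-Ab1 and H2-Eb1 changed sign to 0.02, 0.14, 0.10 and 0.06, none of them called. The part of any of these cells in the litter pattern was not tested.

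Across the 10 mice, Cd74 and H2-K1 were each set against the mean log2 level of 5 marker lists, and none of the 10 relations passed. The lowest adjusted p was 0.480 for Pearson's r and 0.751 for Spearman's rho by permutation tests. For Cd74 and the T and NK cell markers r was 0.50 (permutation p 0.142) and rho 0.27 (permutation p 0.449), and r fell to 0.18 without the 2 farthest mice. Within the 6 mice of litter B, r for Cd74 and the T and NK cell markers was 0.98 (exact permutation p 0.00556). It was the largest of the 10 relations within litter B, and its p was not adjusted over them. Those markers are sparse, at 48.9 to 78.2 normalized counts in sum.

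Class II chains relative to classical class I chains summed up both patterns. The ratio of the sums per kb was 0.654 and 0.857 in the litter A Control hearts, 0.479, 0.496 and 0.468 in the litter B Control hearts, and 0.379, 0.480, 0.378, 0.455 and 0.401 in iSOD2 5, 7, 8, 9 and 10. Only iSOD2 7 overlapped the litter B Control hearts. The ratio of Cd74 to B2m per kb ordered the litter A Control hearts in the same way, at 0.659 and 0.751 against 0.370 to 0.499 in the other 8. The non-classical heavy chains relative to the classical ones varied less, from 0.394 to 0.486, with 0.459 ± 0.0289 in Control and 0.423 ± 0.0208 in iSOD2 hearts (SD, n = 5 each). These ratios are sums over members and were given no test.

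**Figure D5:**
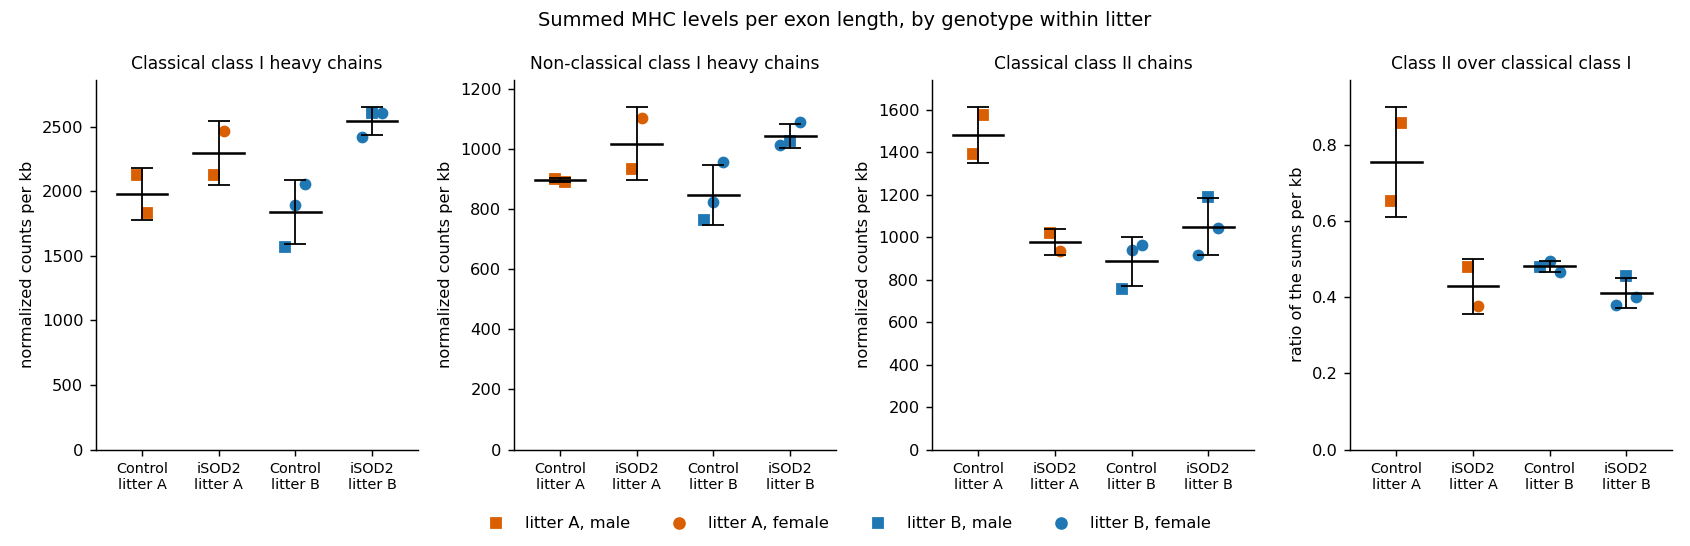
Sums of normalized counts per kb of exon for classical class I, non-classical class I and classical class II chains, and the class II to class I ratio, in the 4 cells of genotype and litter, with 1 symbol per mouse and bars for mean ± SD (n = 2 each in litter A, n = 3 each in litter B). The ratio is 0.654 and 0.857 in litter A Control hearts and 0.378 to 0.496 in the other 8.

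Genes that act with MHC molecules were read from lists. Of 13 class I processing genes and regulators, 0 were called by genotype or litter with DESeq2, and 4 had an unadjusted p under 0.05 by genotype. Over all genes 2.96% were called by genotype and 3.5% by litter, and 13.2% had an unadjusted p under 0.05 by genotype. Psmb10, an immunoproteasome subunit, had a log2 difference of 0.22 (SE 0.10, adjusted p 0.173), Psmb9, another, 0.24 (no adjusted p), and Irf2, an interferon regulatory factor, -0.24 (SE 0.08, adjusted p 0.0545). Pdia3, a partner of tapasin in the loading complex singled out after its values were seen, had an adjusted p of 0.00171 with a log2 difference of -0.21, inside the threshold on size. Of 10 class II processing genes and regulators, 0 were called by genotype or litter with DESeq2, and 1 had an unadjusted p under 0.05 by genotype and 2 by litter. Over all genes the shares at that p were 13.2% by genotype and 13% by litter.

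Ciita, the master regulator of class II transcription, had 137 and 135 normalized counts in the litter A Control hearts and 83.6 to 124 in the others. It was thus highest in the same 2 hearts as H2-Aa, H2-Ab1 and H2-Eb1, with a difference between litters of 0.30 (p 0.363, unadjusted, by DESeq2). Ctss, which degrades the invariant chain, differed by genotype by -0.17 (SE 0.10, adjusted p 0.332), and March1, a ligase that removes class II from the surface, by -0.30 (no adjusted p).

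Of 13 interferon signalling genes 1 was called higher by genotype, beside 1.27% of all genes. This was Gbp2, an interferon-induced GTPase (log2 difference 0.29, SE 0.09, adjusted p 0.0255 by DESeq2). Its paralog Gbp3 had 0.30 (SE 0.14, adjusted p 0.195) and Cxcl9, a chemokine induced by interferon gamma, 0.24 by genotype. Cxcl9 was the 1 gene of this list called by litter, beside 3.5% of all genes, and was higher in litter B (0.74, SE 0.23, adjusted p 0.0302). Of 7 MHC-like genes outside the complex, Fcgrt, the neonatal Fc receptor heavy chain that also pairs with B2m, was called lower in litter B (log2 difference -0.63, SE 0.05, adjusted p 4.58e-35 by DESeq2), and 0 were called by genotype. Over all genes 3.5% were called by litter and 2.96% by genotype. Azgp1 had a genotype difference of 1.47 (SE 0.73, unadjusted p 0.0455), with 0.904 normalized counts in Control 1 and 132 in iSOD2 10, the hearts lowest and highest for Alb, and the part of the liver markers in it was not tested. Mr1, which presents vitamin B metabolites, differed by -0.01 (SE 0.10, adjusted p 0.961).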

How the data were processed

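The authors trimmed reads with Trim Galore, aligned them to mm10 with STAR and counted reads in exons with HOMER, with 1 transcript kept for a gene. What they deposited are estimated counts in steps of 0.5 without normalization, beside an exon length in base pairs that the authors' table gives for each row; overlapping rows count shared reads more than once. The table has no columns of the authors' own comparisons. Counts were rounded, and rows under 10 counts summed over 10 libraries were left out (17728 kept). DESeq2 1.42.0 in R 4.3.3 (Wald test, median-of-ratios scaling, Benjamini-Hochberg adjustment over all genes) with the study's test, filter and thresholds, compared genotypes with no covariate (the methods state no model formula), litters with genotype in the model, and their product term. edgeR 4.0.16 quasi-likelihood was the alternative tool, and the scripts were tested on simulated data. Other alternatives were TMM scaling, other filters, no fold threshold, removal of an exon-length trend, covariates for sex and litter, single litters or genotypes, and leaving out each mouse; covariates for liver and B cell markers, leaving out the lowest and highest Alb hearts and counting overlapping rows once were chosen after seeing the data. Normalized counts are counts over size factors. Members that averaged 50 normalized counts or more, or were called in a fit, were named, and of related lists the called genes and the 3 largest differences above that level. The members and lists were chosen with earlier results of these data known. Libraries held 16448090.5 to 24263085.5 counts, and the lowest chi-square per degree of freedom among 45 library pairs was 5.70, so none was a copy. P-values measure the spread between mice, which share 2 litters. Promoters are RefSeq windows of build GRCm38.p6, found for 35 of 49 members. Figures were drawn with matplotlib 3.10.9, and permutation tests used 100000 resamples, or all orders for 6 mice.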

Additional observations from a re-analysis of the deposited data

Results flagged for a closer look

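In 3 of 96 groups of 4 to 6 hearts, where chance would give about 4.8, 1 heart lay apart from the rest by Dixon's ratio. B2m in litter A was 2158 normalized counts in iSOD2 8 against 1901 to 1917 in the other 3 hearts (ratio 0.937). H2-Eb1 in iSOD2 hearts was 418 in iSOD2 9 against 329.7 to 351 (ratio 0.756). H2-Q4 in iSOD2 hearts was 254 in iSOD2 10 against 224 to 227 (ratio 0.898).

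The genotype difference differed between litters at an unadjusted p under 0.05 in the DESeq2 product term for 4 class II pathway genes, none of which passed after adjustment over all genes. The difference in litter B minus that in litter A was 0.812 for Cd74 (adjusted p 0.0588), 0.941 for H2-Aa (adjusted p 0.118), 0.770 for H2-Ab1 (adjusted p 0.293) and 0.737 for H2-Eb1 (adjusted p 0.521), on the log2 scale. Each was higher in both litter A Control hearts than in the other 8.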

How the results depend on the processing

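No paired analysis was possible because the genotypes share no replicate numbers that could pair 1 mouse with another; the litters that both genotypes share were fitted as a covariate instead, with 4 members called (B2m added, adjusted p 0.0442). The count of members called by genotype was 3 and became 0 with edgeR and 1 (Cd74) in litter A alone; leaving out each mouse gave 3 to 4, with B2m added without iSOD2 7. The edgeR count over all genes was 0, and removing the exon-length trend left 133 calls over all genes in place of 281, with H2-L no longer called. The litter count was 0, became 4 in Control mice alone, and ranged over 0 to 1 on leaving out each mouse (H2-Ke6 without Control 6, H2-Aa without iSOD2 8). Over all genes the litter fit called 553 without Control 6 and 607 without iSOD2 8. The interaction count was 0 and ranged over 0 to 2 (H2-Q10 without Control 2, Cd74 and H2-Aa without iSOD2 5, Cd74 without Control 6 or iSOD2 7). Over all genes these interaction fits called 37 without Control 2, 3 without iSOD2 5, 3 without Control 6 and 6 without iSOD2 7. Signs of the genotype difference (log2) changed in litter A alone for Tapbp (-0.0024), H2-Q4 (-0.0071) and H2-DMb1 (-0.029), in litter B alone for Cd74 (0.20), H2-Aa (0.30), H2-Ab1 (0.20), H2-Eb1 (0.17) and H2-T24 (-0.051), with liver markers as a covariate for Cd74 (0.021), H2-Aa (0.14), H2-Ab1 (0.097) and H2-Eb1 (0.063), and without the length trend for H2-Ke6 (-0.020) and H2-DMa (-0.049). Signs of the litter difference changed with sex as a covariate for H2-D1 (-0.013), H2-K1 (-0.025), H2-L (-0.023) and H2-DMb1 (0.039), in Control mice alone for H2-D1 (-0.085), H2-K1 (-0.12) and H2-L (-0.10), in iSOD2 mice alone for Cd74 (0.24), H2-Aa (0.13), H2-Ab1 (0.085), H2-Eb1 (0.090), H2-T22 (0.0024), H2-T9 (0.00084), H2-Q4 (0.051), H2-Q8 (0.20) and H2-DMb1 (0.087), and without the length trend for H2-L (-0.0016). Leaving out each mouse spanned 0 for the genotype difference of H2-Aa (-0.25 to 0.049), H2-T24 (-0.014 to 0.13) and H2-DMa (-0.073 to 0.085), and for the litter difference of H2-D1 (-0.044 to 0.091), H2-K1 (-0.051 to 0.094), H2-L (-0.056 to 0.082), H2-T22 (-0.047 to 0.0071), H2-T9 (-0.052 to 0.0096), H2-M3 (-0.063 to 0.027), H2-Q8 (-0.34 to 0.025) and H2-DMb1 (-0.15 to 0.083). The cause of these changes was not tested. A mean under 50 normalized counts limits the values of 12 tested rows.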
